A study of Homo sapiens with 12 samples.

Results

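The 10 genes described here are secreted ligands of the TGF-beta family and proteins that bind and block them: the TGF-beta ligands TGFB1, TGFB2 and TGFB3, the activin subunit gene INHBA, the bone morphogenetic protein ligands BMP2, BMP4 and BMP6, the activin antagonists FST and FSTL3, and the BMP antagonist GREM1. They were taken by gene name from the 60504 genes listed in the deposited tables, and their level was read as TPM (an abundance scaled by transcript length and to one total per library). The 12 libraries came from T24 cells, a long-established line of human bladder carcinoma. In the knockout comparison, 2 libraries labelled U11 knockout, from T24 cells edited with CRISPR/Cas9 at the U11 small nuclear RNA gene and grown as monoclonal lines, were set against 2 untreated T24 controls. In the overexpression comparison, 6 libraries labelled U11 overexpression, from T24 cells stably transfected with a U11 plasmid and selected as monoclonal cells, were set against 2 other untreated T24 controls. The overexpression libraries carried the line labels 79, 86 and 87, with 2 libraries each, and what these labels stand for was not given in the sources used here. No source stated that replicates were separate cultures, so P values measured the spread between these libraries, which may be technical.

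Ligands of this family bind pairs of serine/threonine kinase receptors, which phosphorylate SMAD proteins that move to the nucleus and regulate target genes. TGF-beta and activin ligands act mainly through one branch of SMADs and BMP ligands through another, and follistatins, gremlin and noggin hold ligands away from their receptors. In carcinoma cells the TGF-beta ligands are known for growth arrest, matrix production and changes in epithelial state.

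The U11 gene itself was read first as a check on the labels, as the summed TPM of both entries named RNU11. U11 stood at 21.4 and 23.8 TPM in the knockout controls and at 31.6 and 37.4 TPM under the knockout label, so it was higher, not lower, in the libraries so labelled. It stood at 0.0334 and 0.623 TPM in the overexpression controls and at 0.183 and 0.412 TPM in line label 79, at 3.98 and 3.72 TPM in line label 86 and at 61.9 and 53.6 TPM in line label 87. Line label 79 therefore lay within the range of its controls. Whether these reads report U11 was not tested. Every direction below is that of the label, and for the knockout libraries the label went against the measured U11. The labels name poly(A) RNA for all libraries, while the study's methods describe removal of ribosomal RNA. The 10 most abundant genes took 45.5% to 49.6% of all TPM in the 4 libraries of the knockout comparison and 7.06% to 7.56% in the 8 libraries of the overexpression comparison, so levels were compared within each comparison. The keratins KRT7, KRT8, KRT18 and KRT19 and vimentin, which mark T24 as an epithelial line with a mesenchymal filament, were all above 1 TPM in every library and summed to 3306 to 10906 TPM.

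RefSeq promoter windows (build GRCh38.p14, the 250 bases before the listed start) were matched for 9 of the 10 genes, all but BMP2. The windows of TGFB2, BMP4 and FST are shown because these genes were called in both comparisons. For BMP4 the call in the knockout comparison could only be a lower one, as described below. Capitals mark CAGAC or its reverse complement GTCTG (the core of the SMAD box), GGCGCC (a GC-rich SMAD site) and TGANTCA (an AP-1 site), each sought on both strands. TGFB2 lies on the plus strand at chr1:218345086-218345335, BMP4 (the first of 3 listed starts) on the minus strand at chr14:53955051-53955300 and FST on the plus strand at chr5:53480379-53480628.
TGFB2: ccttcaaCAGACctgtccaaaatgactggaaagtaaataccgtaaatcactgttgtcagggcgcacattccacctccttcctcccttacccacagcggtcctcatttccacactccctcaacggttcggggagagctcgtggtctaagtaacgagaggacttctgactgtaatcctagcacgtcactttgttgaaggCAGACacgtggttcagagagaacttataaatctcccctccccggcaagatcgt
BMP4: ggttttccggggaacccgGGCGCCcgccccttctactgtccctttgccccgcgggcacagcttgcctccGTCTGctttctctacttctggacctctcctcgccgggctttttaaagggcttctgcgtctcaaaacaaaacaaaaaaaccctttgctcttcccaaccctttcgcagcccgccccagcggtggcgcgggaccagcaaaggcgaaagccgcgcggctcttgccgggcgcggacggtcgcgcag
FST: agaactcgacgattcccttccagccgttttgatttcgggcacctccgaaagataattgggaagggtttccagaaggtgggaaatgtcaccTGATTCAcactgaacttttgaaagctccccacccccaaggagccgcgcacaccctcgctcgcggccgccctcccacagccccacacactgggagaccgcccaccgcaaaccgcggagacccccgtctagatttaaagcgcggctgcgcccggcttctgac
The TGFB2 window held 2 CAGAC matches, the BMP4 window held 1 CAGAC and 1 GGCGCC match, and the FST window held 1 TGANTCA match, and none of these matches overlapped another. Of the BMP4 starts not shown, the second had no match in its window and the third had 1 CAGAC match. By the deposited gene coordinates given below, the BMP4 window shown lies inside the gene and the FST window runs across the gene start. Among all 35116 RefSeq windows of this length, 38% held CAGAC, 16.4% held GGCGCC and 6.6% held TGANTCA. The matches describe letters only.

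By group mean, FST, FSTL3 and TGFB1 were the 3 most abundant of the 10 genes in every group, and their order differed between groups. FST led in the knockout controls (mean 72.3 TPM, against 43.6 TPM for FSTL3 and 29.0 TPM for TGFB1) and in line labels 79, 86 and 87 (254.5, 235.6 and 362.5 TPM). FSTL3 led under the knockout label (177 TPM, against 40.5 TPM for TGFB1 and 36.7 TPM for FST) and in the overexpression controls (159 TPM, against 146 TPM for FST). The 2 FSTL3 values in the knockout controls lay on both sides of TGFB1. Single libraries departed from the order of the means. INHBA lay above FSTL3 in knockout control replicate 1 (22.8 against 18.9 TPM) and above TGFB1 in replicate 2 (32.5 against 28.3 TPM). TGFB2 lay above FST in knockout label replicate 1 (36.5 against 32.9 TPM). INHBA and TGFB2 followed, and BMP4, TGFB3 and BMP6 were low in every group but the overexpression controls, where BMP4 averaged 15.2 TPM. BMP2 did not exceed 0.378 TPM and GREM1 did not exceed 0.073 TPM in any library, so neither was tested. TGFB1 was the highest of the 3 TGF-beta ligands in every library. The summed TPM of FST and FSTL3 was set against that of INHBA, the ligand subunit they bind, in the same library. It was 3.92 to 8.75 times that of INHBA in the knockout comparison and 12.59 to 54.97 times in the overexpression comparison.

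**Figure D1:**
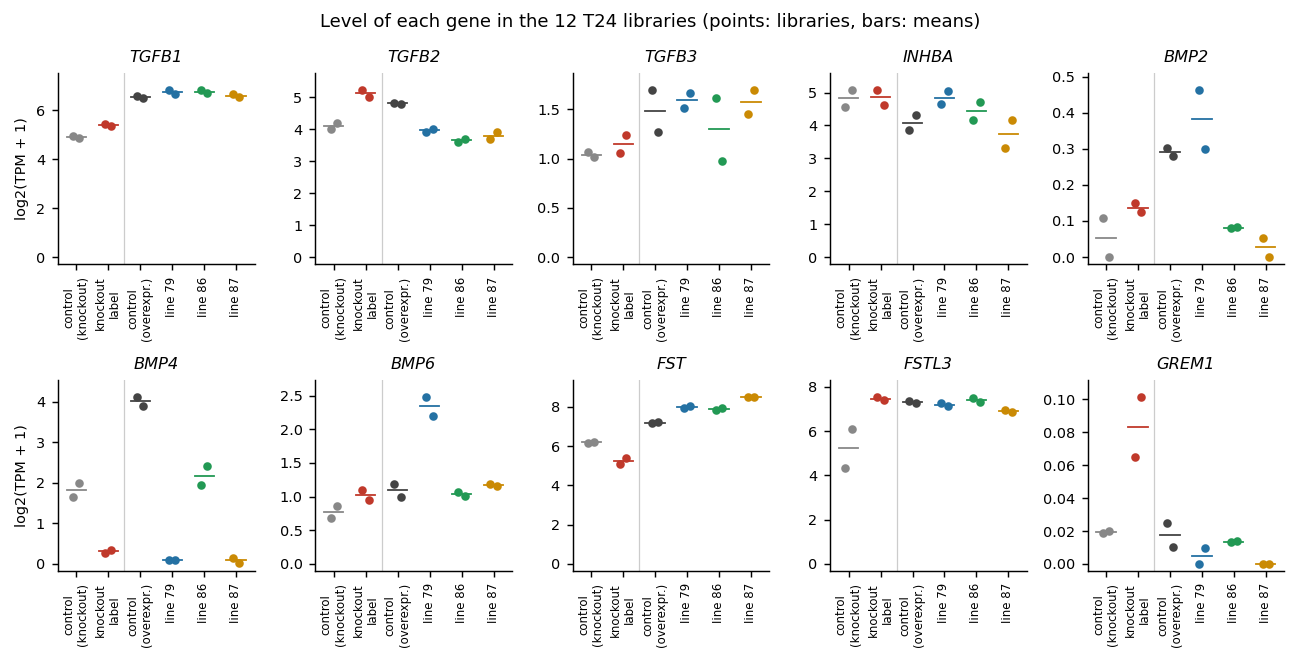
TPM of each of the 10 genes on a log2(TPM + 1) axis (each panel has its own scale) in the 12 libraries, grouped by label, with a point per library and a bar at the group mean. BMP4 was near 0 under the knockout label and in line labels 79 and 87, BMP6 stood apart in line label 79, and FSTL3 split the 2 knockout controls.

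The knockout comparison asked which genes differed between the libraries labelled U11 knockout and untreated T24. Of the 10 genes, 7 passed the minimum of 1 TPM in at least 2 libraries. TGFB2 and FSTL3 were called higher and FST and BMP4 lower (unadjusted P under 0.05 and at least 1.5-fold), against a background of 8.61% of all genes tested called higher and 3.15% called lower. BMP4 reached 1 TPM in the controls alone, so its call could only be a lower one and carries no weight in the count. The means of TGFB2 differed 2.10-fold, those of FSTL3 4.05-fold, those of FST 1.97-fold and those of BMP4 10.6-fold. All 4 calls held under each of the 3 other scalings, FPKM, median ratio scaling and quantile normalization. These scalings moved the split over all genes from 1236 higher and 452 lower to 725 and 570, 810 and 674, and 743 and 695 (without control replicate 2 to 2046 and 465, and without knockout label replicate 1 to 798 and 587), and the median over all genes from 0.11 to 0.02, 0.01 and -0.01.

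Among the TGF-beta ligands, TGFB1, the most widely expressed of the family, stood at 29.8 and 28.3 TPM in its controls, against 41.7 and 39.2 TPM under the knockout label. The groups did not overlap, but the log2 fold change of 0.47 (SE 0.10, adjusted P = 0.057) lay under the 1.5-fold threshold. TGFB2, which is known in epithelial and neural development and lies on chromosome 1 from 218346235 to 218444619 (hg38, plus strand), stood at 15.1 and 17.2 TPM in its controls, against 36.5 and 31.2 TPM under the knockout label. It rose by a log2 fold change of 1.02 (SE 0.13, adjusted P = 0.0243). Over the alternatives this ran from 0.91 to 1.13, and the adjusted P of TGFB2 was not always under 0.05. TGFB2 made up 32.8% and 37.0% of the summed TPM of the 3 TGF-beta ligands in the controls and 46.0% and 43.5% under the knockout label. TGFB3 stood at 1.09 and 1.02 TPM and at 1.08 and 1.35 TPM, and the groups overlapped. Its log2 fold change was 0.10 (SE 0.13, adjusted P = 0.638).

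INHBA, whose product forms activin A, varied as much within groups as between them. It stood at 22.8 and 32.5 TPM in its controls, against 32.8 and 23.7 TPM under the knockout label (log2 fold change 0.03, SE 0.23, adjusted P = 0.942). BMP4, a ligand known for patterning and for epithelial differentiation (chromosome 14, 53949736 to 53958761, minus strand), stood at 2.13 and 2.97 TPM in its controls, against 0.209 and 0.271 TPM under the knockout label. Both knockout libraries lay far below both controls. The log2 fold change on the TPM + 1 scale was -1.51 (SE 0.16, adjusted P = 0.0194). Over the alternatives that tested BMP4 it ran from -2.95 to -1.12, with an adjusted P not always under 0.05. BMP4 passed the minimum only through the controls, and with either control left out it was not tested. BMP6, another BMP ligand, stood at 0.597 and 0.806 TPM in its controls, against 1.14 and 0.938 TPM under the knockout label, under the minimum for a test.

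The 2 follistatin genes moved in opposite directions. FST, which encodes follistatin, the high-affinity binder of activins (chromosome 5, 53480409 to 53487134, plus strand), stood at 70.6 and 74.0 TPM in its controls, against 32.9 and 40.6 TPM under the knockout label. The groups did not overlap, and FST fell by 0.97 on the log2 scale (SE 0.13, adjusted P = 0.0259). Over the alternatives the log2 fold change of FST ran from -1.11 to -0.82, with an adjusted P not always under 0.05. FSTL3, whose product also binds activins (chromosome 19, 676365 to 683399, plus strand), stood at 18.9 and 68.3 TPM in its controls, against 187 and 166 TPM under the knockout label. Both knockout libraries lay above both controls, but the controls themselves differed 3.61-fold. The log2 fold change was 2.26 (SE 0.58, adjusted P = 0.0854), and it was 1.36 without control replicate 1 and 3.16 without control replicate 2. The FSTL3 call was lost when either library labelled U11 knockout was left out (adjusted P = 0.315 and 0.24; 1.38e-05 to 0.315 over all alternatives).

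**Figure D2:**
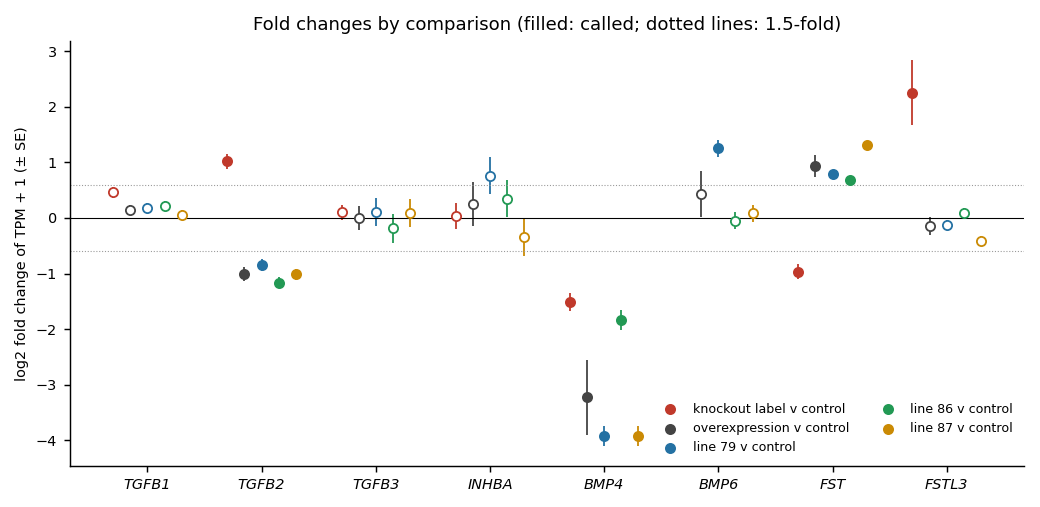
Log2 fold changes of TPM + 1 with their standard errors for the 8 genes tested, by comparison, with filled points for called genes and dotted lines at 1.5-fold. TGFB2 and FST lay on opposite sides of 0 in the knockout and overexpression comparisons, while BMP4 lay below 0 in both. In the knockout comparison BMP4 passed the minimum through the controls alone.

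The overexpression comparison asked the same of the 6 libraries labelled U11 overexpression. Here 8 of the 10 genes were tested. FST was called higher, against 0.767% of all genes, and TGFB2 and BMP4 were called lower, against 1.16% of all genes. TGFB2 and FST each moved against their direction in the knockout comparison, and BMP4 moved the same way. In the knockout comparison the BMP4 call could only be a lower one, so this shared direction carries no weight. The comparisons shared no libraries.

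TGFB2 stood at 27.2 and 26.9 TPM in its controls, against 11.2, 13.0 and 15.2 TPM as the lowest, median and highest of the overexpression libraries. No overexpression library reached a control, and TGFB2 fell by 1.01 on the log2 scale (SE 0.13, adjusted P = 0.0202). This fit counted the overexpression libraries singly, although they were pairs from the line labels. Over the alternatives the log2 fold change of TGFB2 ran from -1.08 to -0.93, and its adjusted P was not always under 0.05. Its share of the 3 TGF-beta ligands was 22.0% and 22.7% in the controls and 8.95% to 13.1% in the overexpression libraries. An entry on the same strand, TGFB2-OT1, overlaps TGFB2, and it was listed at 16.4 TPM in line label 79 replicate 3 and at no more than 0.245 TPM in the other 11 libraries, so reads of the 2 entries may have been divided differently in that library. TGFB1 stood at 94.1 and 90.1 TPM in its controls and spanned 90.6 to 112 TPM under the overexpression label (log2 fold change 0.15, SE 0.09, adjusted P = 0.898). TGFB3 was not called (log2 fold change 0.00, SE 0.22, adjusted P = 0.999).

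BMP4 stood at 16.5 and 13.9 TPM in the controls. In the overexpression libraries it stood at 0.0617 and 0.0725 TPM for line label 79, at 2.85 and 4.30 TPM for line label 86 and at 0.109 and 0.0191 TPM for line label 87. Every overexpression library lay below both controls, and the 3 line labels fell into 2 levels. The mean was 12.3-fold lower (24.4-fold without line label 86 replicate 3), with a log2 fold change of -3.23 (SE 0.68, adjusted P = 0.249). The adjusted P ran from 1.65e-05 to 1.00 over the alternatives. FST stood at 143 and 149 TPM in its controls, against 231 to 363 TPM in the overexpression libraries, again with no overlap. It rose by a log2 fold change of 0.93 (SE 0.19, adjusted P = 0.24; 0.000322 to 1.00 over the alternatives). FSTL3 stood at 164 and 153 TPM and at 114 to 179 TPM (log2 fold change -0.14, SE 0.16, adjusted P = 0.925). INHBA (0.25, SE 0.39, adjusted P = 0.952) and BMP6 (0.43, SE 0.42, adjusted P = 0.925) were not called either. The overexpression libraries and their controls came from 2 library series, named R17018 and R18019 in the labels. Within these series the log2 fold changes were -1.08 and -0.93 for TGFB2, -3.40 and -3.06 for BMP4 and 0.94 and 0.93 for FST.

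The line labels were then compared with the controls and with each other in one fit of the 8 libraries with 4 group means. TGFB2, BMP4 and FST were called in every line label, with BMP6 in line label 79 in addition (and INHBA there under 5 alternatives). That made 4 of 8 genes tested in line label 79, 3 in line label 86 and 3 in line label 87, against 7.95%, 3.6% and 5.13% of all genes. BMP4 lay under 1 TPM in line labels 79 and 87 and passed the minimum through the controls and line label 86, so its lower calls there carry no weight in these counts. In line label 79 the calls over all genes were 383 higher and 871 lower, and 519 and 688 with quantile normalization. TGFB2 fell by 0.85, 1.16 and 1.01 on the log2 scale in line labels 79, 86 and 87 (SE 0.10 each, adjusted P = 0.00544, 0.00553 and 0.00528), with no call between line labels. FST rose by 0.80, 0.69 and 1.31 (SE 0.06 each, adjusted P = 0.00112, 0.00584 and 0.000334). It stood at 247 and 263 TPM in line label 79, at 231 and 241 TPM in line label 86 and at 363 and 362 TPM in line label 87.

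BMP4 fell by 3.92 in line label 79, by 1.84 in line label 86 and by 3.92 in line label 87 (SE 0.18 each, adjusted P = 0.000189, 0.0085 and 0.000334). The mean BMP4 level was 4.25-fold below the controls in line label 86 and 227-fold below in line label 79. In line label 87 it was 237-fold below, and 139-fold or 794-fold below when replicate 3 or replicate 1 was left out, since both values lay near 0. Within the library series, line label 86 gave log2 fold changes of -2.18 and -1.49.

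Between line labels, 2 genes were called in each pair, against 9.8% of all genes for line labels 79 and 86, 8.7% for 79 and 87 and 6.46% for 86 and 87. BMP4 lay under 1 TPM in line labels 79 and 87 and passed the minimum through the controls and line label 86. Its calls between 79 and 86 and between 86 and 87 therefore carry no weight in these counts. Between 79 and 86 the calls over all genes were 552 higher and 994 lower, and 680 and 788 with quantile normalization. BMP4 was lower in line label 79 than in line label 86 (log2 fold change -2.08, SE 0.18, adjusted P = 0.00175) and higher in line label 86 than in line label 87 (2.09, SE 0.18, adjusted P = 0.00245). FST was lower in line label 86 than in line label 87 (-0.62, SE 0.06, adjusted P = 0.00382) and, under the 1.5-fold threshold, in line label 79 than in line label 87 (-0.51, SE 0.06, adjusted P = 0.00462). FSTL3 differed between line labels 86 and 87 by less than 1.5-fold (0.50, SE 0.09, adjusted P = 0.0256). It stood at 152 and 139 TPM in line label 79, at 179 and 161 TPM in line label 86 and at 125 and 114 TPM in line label 87.

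BMP6, on chromosome 6 from 7726797 to 7881422, was called higher in line label 79 and not in line labels 86 and 87. It stood at 1.28 and 0.987 TPM in the controls, at 4.59 and 3.59 TPM in line label 79, at 1.11 and 1.02 TPM in line label 86 and at 1.29 and 1.22 TPM in line label 87. Both libraries of line label 79 lay above the other 6 libraries. BMP6 rose in line label 79 by a log2 fold change of 1.25 against the controls (SE 0.15, adjusted P = 0.00566), and by 1.30 and 1.17 against line labels 86 and 87 (adjusted P = 0.00427 and 0.00586). Within the library series the difference from the controls was 1.29 and 1.21. In line label 79 the endothelial marker CDH5 (VE-cadherin) moved with BMP6. The 5 endothelial markers (PECAM1, CDH5, VWF, KDR and TEK) summed to 34.2 and 32.4 TPM in line label 79, to 3.53 and 3.16 TPM in the controls, to 4.79 and 4.47 TPM in line label 86 and to 5.38 and 4.30 TPM in line label 87. Nearly all of this was CDH5, at 34.1 and 32.2 TPM in line label 79, while PECAM1 did not exceed 0.297 TPM and VWF, KDR and TEK did not exceed 0.0856 TPM in any library. In the knockout comparison the same sum was 4.96 and 4.84 TPM in the controls and 0.122 and 0.16 TPM under the knockout label. The part of these markers in the BMP6 difference was not tested.

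INHBA, on chromosome 7 from 41685114 to 41703108, stood at 13.6 and 18.9 TPM in the controls, at 24.2 and 31.9 TPM in line label 79, at 16.8 and 25.3 TPM in line label 86 and at 8.88 and 17.0 TPM in line label 87. In each of the 4 groups the library of series R18019 was the higher one. INHBA was not called in line label 79 against the controls, but several alternatives called it there: the series as a block (0.76, adjusted P = 0.0253; 0.79 and 0.73 within the series), quantile normalization (0.82, adjusted P = 0.203), coverage in place of TPM (0.89, adjusted P = 0.0251) and leaving out either library of line label 87 (adjusted P = 0.155 each). Between line labels 86 and 87 it was called with the block (0.70, adjusted P = 0.0411), with coverage (0.77, adjusted P = 0.049) and without line label 87 replicate 3 (1.13, adjusted P = 0.158). The log2 fold change between line labels 79 and 87 was 1.11 (SE 0.34, adjusted P = 0.0981), which passed the unadjusted threshold. The call was lost without line label 79 replicate 3, where the log2 fold change was 0.92, and without line label 87 replicate 1, where it was 0.67.

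Over the 8 libraries of the overexpression comparison, BMP4, INHBA and BMP6 had the widest range of log2(TPM + 1) among the 10 genes. Of 11166 genes with a mean of at least 5 TPM, those most like BMP4 by Pearson r were EFNB2 (r = 0.996), RASSF1 (0.989) and EZR (0.978). EFNB2, an ephrin ligand, stood at 59.2 and 57.3 TPM in the controls, at 46.9 and 48.1 TPM in line label 86 and between 35.8 and 37.4 TPM in line labels 79 and 87, so it shared the order of BMP4 over a much narrower range. For INHBA the closest were PAXBP1 (0.975), SMIM10L1 (0.968) and ZNF749 (0.960). For BMP6 they were ADGRG1 (0.994), TIE1 (0.985) and COL6A1 (0.983). TIE1, a receptor kinase known from endothelium, stood at 21.1 and 17.8 TPM in line label 79 and between 1.46 and 2.67 TPM in the other 6 libraries. The 8 points are pairs of libraries from 4 groups, so these values describe likeness only.

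The other genes of the pathway were read from lists by role. In the knockout comparison, 4 of 23 other ligands were tested, and 1 was called higher and 2 lower, against 8.61% of all genes called higher and 3.15% lower. GDF15, a stress-responsive cytokine of the family, fell from 8.84 and 7.80 TPM to 2.27 and 1.91 TPM (log2 fold change -1.59, SE 0.14, adjusted P = 0.0127). INHBB, the other activin subunit gene, was listed at 2.82 and 3.03 TPM for the controls, against 0.112 and 0.0957 TPM under the knockout label. It passed the minimum of 1 TPM through the controls alone, so its call had to be a lower one. AMH rose (0.82, SE 0.15, adjusted P = 0.0457). INHBB and AMH lay under 5 TPM and are named after their values were seen, as are CHRDL1 and LTBP1 below. Of 14 other antagonists, 6 were tested (median 0.51). NOG (noggin), which binds BMP ligands, fell by 0.77 on the log2 scale (SE 0.11, adjusted P = 0.0296), while TWSG1, a BMP-binding protein, rose by a log2 fold change of 0.86 (SE 0.12, adjusted P = 0.0265) and CHRDL1 by 0.79 (SE 0.21, adjusted P = 0.092). Antagonists thus moved both ways under the knockout label, FST and NOG down and TWSG1 up. FSTL3 was up as well, but its controls differed widely and its call was lost without either library labelled U11 knockout.

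Of 11 genes for latency and activation of TGF-beta, 9 were tested and 3 were called higher, with none lower (median 0.48), against 8.61% of all genes tested called higher and 3.15% called lower. THBS1 (thrombospondin, an activator of latent TGF-beta) rose from 203 TPM in both controls to 638 and 509 TPM (log2 fold change 1.48, SE 0.12, adjusted P = 0.0118). FURIN, the protease that cleaves the precursors, rose by 0.66 (SE 0.11, adjusted P = 0.0364) and LTBP1 by 0.60 (SE 0.15, adjusted P = 0.0766). Under FPKM, median ratio scaling and quantile normalization only THBS1 of this list was called, and up to 6 were called under other alternatives. Of 14 receptors, 11 were tested and none was called (median 0.21; limma gave 2 an unadjusted P under 0.05), and between 0 and 3 were called higher and 0 to 1 lower over the alternatives. Of the 6 SMADs, SMAD3 was called lower (-0.60, SE 0.13, adjusted P = 0.0631); the call was lost without control replicate 2 or knockout label replicate 2, and with coverage in place of TPM. All 7 TGF-beta target genes were tested, and 4 were called higher and none lower (median 0.77, 3 to 5 over the alternatives and 4 under each scaling), against the same 8.61% of all genes called higher. They were TGFBI, CTGF, SKIL and SMAD7. TGFBI, a matrix protein, rose from 24.9 and 23.5 TPM to 157 and 160 TPM (2.66, SE 0.09, adjusted P = 0.00276). CTGF, a matricellular protein, rose by 1.66 (SE 0.10, adjusted P = 0.00644). Of 10 BMP target genes, 5 were tested, and SMAD7, which is on both target lists, was the only one called (median 0.28). By limma, 3 of the 5 had an unadjusted P under 0.05, and 4 log2 fold changes were positive and 1 negative. ID1, named after its values were seen, rose by less than 1.5-fold without overlap between the groups (0.54, SE 0.08, adjusted P = 0.0294). Of the 8 stromal markers only COL1A1 was tested, and it passed the minimum only under the knockout label (0.755 and 0.823 TPM in the controls, 1.95 and 1.64 TPM under that label). The 8 stromal markers summed to 1.74 and 1.77 TPM and to 3.54 and 2.65 TPM, and among the markers of the line itself VIM was called higher (1304 and 1259 TPM to 2254 and 2096 TPM; 0.76, SE 0.07, adjusted P = 0.0144) and KRT19 lower (158 and 151 TPM to 92.8 and 90.3 TPM; -0.74, SE 0.08, adjusted P = 0.0194). The part of these markers in the target genes was not tested.

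**Figure D3:**
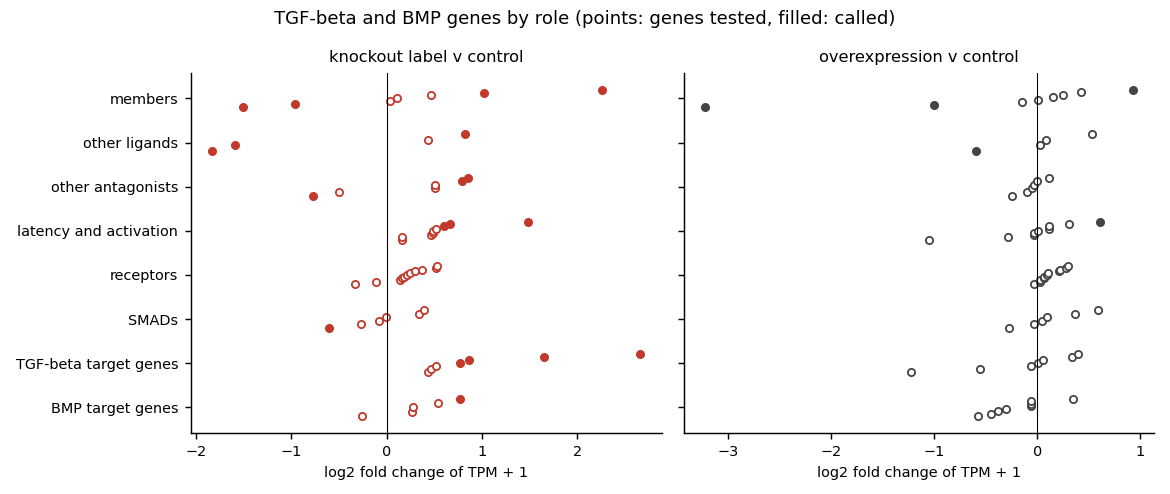
Log2 fold changes of TPM + 1 of the genes tested in each role list, for the knockout comparison and the overexpression comparison, with a point per gene and filled points for called genes. In the knockout comparison 4 of the 7 TGF-beta target genes were called higher, and in the overexpression comparison none was called.

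In the overexpression comparison 2 of the 49 genes tested over these lists were called, 4.08%, against 0.767% of all genes called higher and 1.16% called lower. AMH, a ligand of the family, fell from 10.3 and 10.2 TPM to between 4.78 and 9.27 TPM (-0.59, SE 0.22, adjusted P = 0.716), and LTBP1 rose (0.61, SE 0.21, adjusted P = 0.647). The AMH call was lost under FPKM, median ratio scaling and quantile normalization and without either control or either library of line label 79, among others, and the LTBP1 call under FPKM and without control replicate 1 or either library of line label 79. None of the 6 other antagonists, 11 receptors, 6 SMADs, 7 TGF-beta target genes and 8 BMP target genes tested was called. By limma, 1 receptor and 1 TGF-beta target gene had an unadjusted P under 0.05, and none of the others. The medians of the target lists were 0.01 and -0.18, against -0.02 for all genes.

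The line labels moved apart within these pooled values. The genes in this paragraph were named after their values were seen. Of 7 TGF-beta target genes, 3 were called in line label 79, none in line label 86 (2 had an unadjusted P under 0.05 by limma) and 4 in line label 87, against 7.95%, 3.6% and 5.13% of all genes called in either direction, with medians of 0.28, 0.13 and -0.73. In line label 79 CTGF and TGFBI were called higher and PMEPA1 lower, and in line label 87 all 4 were called lower. CTGF rose in line label 79 by 0.73 (SE 0.06, adjusted P = 0.00112). TGFBI stood at 52.1 and 49.0 TPM in the controls, at 235 and 238 TPM in line label 79, at 58.5 and 57.9 TPM in line label 86 and at 18.1 and 19.4 TPM in line label 87. It rose in line label 79 (2.20, SE 0.07, adjusted P = 6.24e-05) and fell in line label 87 (-1.38, SE 0.07, adjusted P = 0.000409). PMEPA1, a feedback inhibitor of TGF-beta signaling, stood at 6.64 and 6.88 TPM in the controls, at 2.30 and 1.85 TPM in line label 79, at 6.91 and 6.99 TPM in line label 86 and at 0.488 and 0.485 TPM in line label 87. It fell in line labels 79 and 87 (-1.34 and -2.38, SE 0.12 each, adjusted P = 0.00181 and 0.000397). THBS1 fell in both as well (-1.02 and -1.99, SE 0.07 each, adjusted P = 0.000596 and 0.000229). Of the 9 genes tested for latency and activation, LTBP1 was called higher (0.97, SE 0.12, adjusted P = 0.00604) and THBS1 lower in line label 79. None was called in line label 86, and THBS1 and FURIN were called lower in line label 87. ID1, a classical BMP target, stood at 224 and 238 TPM in its controls, against 453 and 464 TPM in line label 79. It rose there (0.99, SE 0.06, adjusted P = 0.000472) and was not called in line labels 86 and 87. Of the 8 BMP target genes tested, line label 79 had 1 called higher (ID1) and 1 lower (BAMBI, a decoy receptor, -0.62, SE 0.14, adjusted P = 0.0427), line label 86 none (2 had an unadjusted P under 0.05 by limma) and line label 87 had 3 called lower (SMAD7, MSX2 and SMAD6), with medians of -0.08, -0.05 and -0.46. Over the alternatives 0 to 2 were called lower in line label 79, 0 to 2 in line label 86 and 1 to 3 in line label 87. BAMBI in line label 79 and MSX2, PMEPA1 and PDGFRB in line label 87 lay under 1 TPM in both libraries and passed the minimum only through groups with higher levels, so their lower calls there carry no weight in the counts. INHBB rose in line label 87 (1.24, SE 0.14, adjusted P = 0.00768). The endothelial marker CDH5 was called higher in line label 79 (3.01, SE 0.13, adjusted P = 0.000138), and its part in the differences there was not tested. In line label 87 the leukocyte marker CD68 was called higher (3.22 and 2.72 TPM in the controls, 6.27 and 6.31 TPM) and the stromal marker PDGFRB lower (1.41 and 1.59 TPM in the controls, 0.478 and 0.504 TPM; not called under FPKM), and their part in these differences was not tested. The leukocyte sum was 6.32 and 9.30 TPM there and 3.22 and 5.21 TPM in the controls, with CD68 the most abundant, and the stromal sum 3.01 and 2.16 TPM against 4.03 and 3.33 TPM, with COL1A1 the most abundant.

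**Figure D4:**
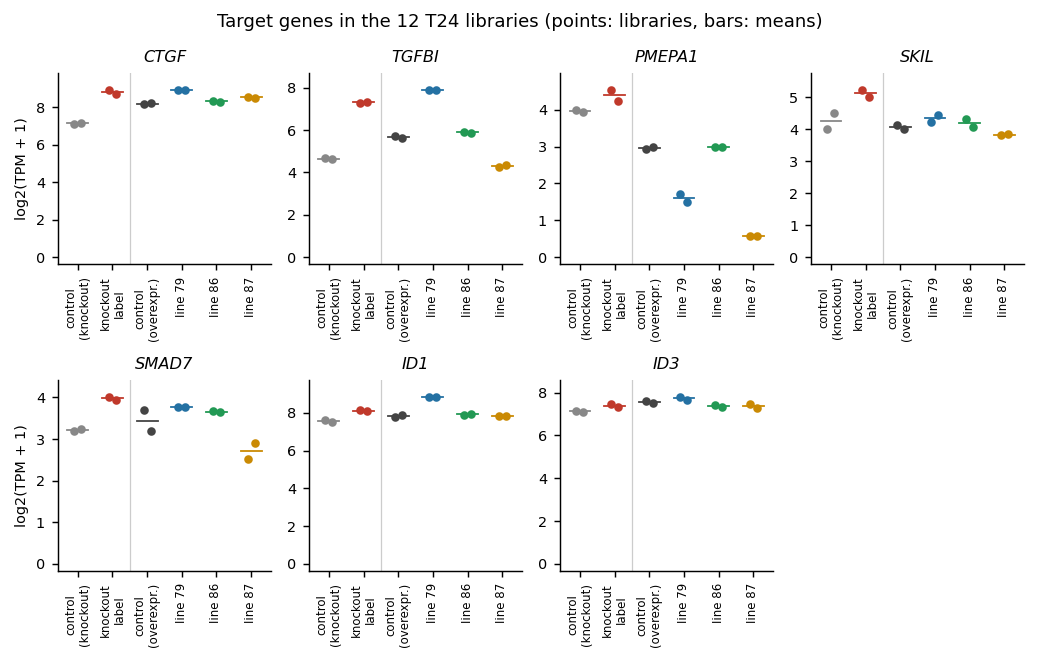
Levels of 7 TGF-beta and BMP target genes on a log2(TPM + 1) axis (each panel has its own scale) in the 12 libraries, with a point per library and a bar at the group mean. TGFBI was high under the knockout label and in line label 79 and low in line label 87, and PMEPA1 was low in line labels 79 and 87.

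The controls of the 2 comparisons, all labelled untreated T24, differed widely from each other. Of the 7 genes tested, 6 were called, against 73.9% of all genes, and the median of all log2 fold changes (knockout controls minus overexpression controls) was -0.86. After median ratio scaling this median was 0.00, the calls over all genes went from 525 higher and 10540 lower to 1691 and 1494, and 3 of the 7 genes were called. BMP4 was lower in the knockout controls under each alternative (2.55 against 15.2 TPM, log2 fold change -2.20, SE 0.17, adjusted P = 0.00068, -2.65 to -1.28 over the alternatives), as was TGFB1 (29.0 against 92.1 TPM, -1.63, SE 0.08, adjusted P = 0.000426, -2.29 to -0.65). INHBA was higher (27.6 against 16.2 TPM, 0.73, SE 0.24, adjusted P = 0.0378, 0.23 to 1.67), but its call was lost with no filter, with coverage in place of TPM, without knockout control replicate 2 and without overexpression control replicate 1 (adjusted P up to 0.153). The sign of TGFB2 turned with the scaling. Library type, series and culture cannot be told apart here.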

How the data were processed

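RNA sequencing covered 12 libraries of T24 cells. The authors aligned reads to hg38 with Hisat2 and estimated abundance per library with Stringtie. The authors deposited coverage (mean aligned bases per position), FPKM and TPM for each gene. TPM holds no read counts, so DESeq2, which the study names, was not run, and no counting interval was computed. From the ratio of coverage to FPKM, aligned bases came to 9.07 to 15.33 gigabases per library.

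Groups came from the treatment labels, and line labels and library series (R17018, R18019 and R18051) from the titles. Tests used log2(TPM + 1). Genes reaching 1 TPM in 2 libraries of a fit were tested with limma 3.58.1 (lmFit, eBayes with trend) in R 4.3.3, with Benjamini-Hochberg adjustment over all genes tested. A gene was called at an unadjusted P under 0.05 and at least 1.5-fold, the thresholds of the study; adjusted P is given beside each gene. Fold changes on this scale understate the change of low genes. Scripts were tested on simulated data with 200 changed genes. Python 3.11.15, pandas 2.3.3, numpy 2.4.6 and matplotlib 3.10.9 were used for summaries and figures.

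The 10 genes and all gene lists were chosen with earlier results of these data known. A gene of the TGF-beta target list is not reported here and was left out of the counts of that list. Named from each list were genes called in the knockout or overexpression comparison whose mean reached 5 TPM in a group, at most 6 a list and comparison, plus the 3 genes most like each of the 3 widest-ranging members. Coordinates are those of the deposited tables unless credited to RefSeq.

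Alternatives were a pseudocount of 0.1, FPKM, median ratio scaling, quantile normalization, no filter, 1 TPM in every library, no trend, adjusted P in the call, a replicate block, all 12 libraries in one fit, line label means, single library series and each library left out. The block of the overexpression comparison was the library series named in the labels, which each group shares (1 library of R17018 and 1 of R18019 a group); deviations of libraries of one series correlated at 0.07 to 0.14 between groups. Where leaving one out left 1 library in a group, it was assumed to vary like the others. Coverage in place of TPM was added after seeing the data.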

Additional observations from a re-analysis of the deposited data

Results flagged for a closer look

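Of the 10 genes, 4 differed between the 3 line labels at an adjusted P under 0.05 by limma's F test over the 8 libraries of the overexpression comparison. The adjusted P was 0.00173 for BMP4, 0.00315 for FST, 0.00491 for BMP6 and 0.0273 for FSTL3. BMP4 was low in line labels 79 and 87, FST was highest in line label 87, BMP6 was highest in line label 79 and FSTL3 was lowest in line label 87.

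TGFB3 in line label 86 replicate 3, at 0.965 TPM, lay apart from the other overexpression libraries, which stood between 1.73 and 2.23 TPM. Its gap to the nearest library was 0.659 of the range of log2(TPM + 1) over the 6 libraries, above the limit of 0.625. Chance alone gives such a gap in about 1 in 20 groups of independent values. The limit was applied to each of the 10 genes, and the 6 libraries are pairs from line labels. Coverage of TGFB3 in line label 86 replicate 3 was only 1.20.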

How the results depend on the processing

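The knockout comparison gave 4 called genes and the overexpression comparison 3, and with the replicate block 4 and 3. With the block of the library series, INHBA was called in addition in line label 79 and between line labels 86 and 87, and the block changed no other call of the 10 genes. Other settings called INHBA too: quantile normalization, coverage and leaving out either library of line label 87 in line label 79, coverage and leaving out line label 87 replicate 3 between 86 and 87, and coverage between 79 and 86. Libraries of the knockout comparison share only a replicate number, and their deviations correlated at 0.02. With adjusted P in the call, 1 gene was called in the overexpression comparison (TGFB2) and 1 between line labels 79 and 87. With 1 TPM in every library, BMP4, BMP6 and TGFB3 were not tested in the overexpression comparison, and the calls were 2 for line label 79, 0 between 79 and 86, 1 between 79 and 87 and 1 between 86 and 87. Leaving out a library gave 1 to 2 calls between 79 and 87. Between the controls, 3 genes were called under each of FPKM, median ratio scaling and quantile normalization, where TGFB2 turned to 0.15, 0.23 and 0.19, TGFB3 to 0.058 and 0.13 under the first 2 and FST to 0.038 under the third.

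Small differences of genes not called in TPM with all libraries changed sign. In the knockout comparison TGFB3 was -0.0047 with quantile normalization, and INHBA was -0.066, -0.079 and -0.061 with FPKM, median ratio scaling and quantile normalization and -0.21 to 0.28 without single libraries. Without single libraries TGFB3 ran from -0.21 to 0.22 in the overexpression comparison and from -0.028 to 0.62 between line labels 79 and 86, where it was called without line label 86 replicate 1. The cause was not tested.

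Over all genes, FPKM lowered the calls from 304 to 173 in the overexpression comparison, from 1254 to 790, 568 to 322 and 809 to 456 in line labels 79, 86 and 87, from 1546 to 1005 between 79 and 86, from 1019 to 624 between 86 and 87, from 1372 to 912 between 79 and 87 and from 11065 to 2741 between the controls. Adjusted P gave 984 calls in place of 1688 in the knockout comparison and 26 in place of 304 in the overexpression comparison, 216 and 418 for line labels 86 and 87 and 632 between them. Between the controls, median ratio scaling gave 3185 calls and quantile normalization 3346. With 2 libraries in most groups, small differences could not be resolved.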

Other observations

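Some leukocyte and stromal transcripts followed the library series and not the group. LYZ stood at 1.55 to 1.68 TPM in the 4 libraries of series R18019 and was listed at 0 in the 4 of series R17018. CD3E stood at 0.502 to 0.915 TPM and PTPRC at 0.265 to 0.496 TPM in R18019, against at most 0.0516 and 0.0132 TPM in R17018. LUM and DCN went the other way, at 0.0998 to 0.284 TPM and 0.0286 to 0.115 TPM in R17018 and listed at 0 in R18019. Each series held 1 control and 1 library of each line label, so these values did not move with the groups.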
